A study of Homo sapiens with 4 samples.

Results

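Peaks of N4-acetylcytidine (ac4C) were described on the mRNAs of the cytosolic translation machinery and of RNA processing proteins in FaDu cells with and without knockdown of NAT10. The genes were chosen by symbol among the 2483 genes that have a peak in the deposited table of differential peaks. They were ribosomal proteins (RPL, RPLP, RPS), initiation and elongation factors (EIF, EEF), helicases (DDX, DHX), heterogeneous nuclear ribonucleoproteins (HNRNP), splicing factors (SRSF, SF3, PRPF), RNA modification genes (METTL, NSUN, TRMT, YTHD and NAT10 itself) and EWSR1. This gave 144 of the 2483 genes, of which 65 carried a ribosomal protein symbol and 79 did not, and the rule found no PUS or ALKBH gene. The 144 genes held 195 of the 2807 differential peaks, 265 peaks of the shNC list and 266 peaks of the shNAT10 list.

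FaDu is an established human cell line from a squamous cell carcinoma of the hypopharynx, and both conditions were FaDu cells, carrying either a control hairpin (shNC) or one that targets NAT10 (shNAT10). For acRIP-seq, fragmented RNA is precipitated with an antibody against ac4C and sequenced beside the input RNA, and a peak is a stretch of a transcript with more IP than input reads. The 4 libraries were 1 IP and 1 input of each condition, which leaves every difference between the conditions without a replicate check, and none was tested. The files held no RNA level, so the loss of NAT10 RNA could not be checked in these libraries.

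ac4C is an acetyl group on cytidine in rRNA, tRNA and mRNA, and NAT10 is the acetyltransferase known to write it. The cytosolic ribosome is built from rRNA and ribosomal proteins, whose mRNAs are among the most abundant in growing cells. Many of these mRNAs begin with a C and a run of pyrimidines, the 5′ terminal oligopyrimidine tract, through which their translation follows growth signals. The spliceosome, hnRNP proteins and RNA helicases shape the mRNAs that these ribosomes read, and METTL3 and the YTH proteins write and read another RNA mark, m6A.

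The annotated starts showed a feature that the symbol rule did not use. A pyrimidine start was counted where an annotated RefSeq start of a gene was a C followed by at least 4 bases that are each C or T, read on the gene's strand. A RefSeq start was matched for 118 of the 144 genes. It held a pyrimidine start in 36 of 51 matched ribosomal protein genes (70.6%, 95% Wilson interval 57.0 to 81.3%), in 11 of 67 other members (16.4%, 9.42 to 27.1%), in 8.10% of the 1728 matched non-member genes of the differential table and in 5.14% of all 27305 genes of the RefSeq table. The 11 other members were DDX5, DDX50, EEF1A1, EEF1B2, EIF3D, EIF3F, EIF3K, EIF3M, EIF4B, HNRNPA0 and SF3A2. None of the 10 matched RNA modification genes held it. The starts below (GRCh38.p14, RefSeq, gene strand 5′ to 3′, 5 bases before the start and 25 from it) show genes that the results turn on, and capitals mark the C and its pyrimidine run where there is one.
RPL11 (chr1:23691801-23691830, plus strand): gctttCTCTTCCTgctctccatcatggcgg
RPS3A (chr4:151099623-151099652, plus strand): ttccgCCCTTTTggctctctgaccagcacc
RPS9 (chr19:54200853-54200882, plus strand): cgcgcCTCTTTCTCagtgaccgggtggttt
RPL13A (chr19:49487603-49487632, plus strand): tcctcCTTTTCCaagcggctgccgaagatg
EEF1A1 (chr6:73521008-73521037, minus strand): acgttCTTTTTCgcaacgggtttgccgcca
RPL7L1 (chr6:42879611-42879640, plus strand): gcgccgtagctaggagcggacgccataggt
PRPF19 (chr11:60906561-60906590, minus strand): agggcaatttccgttaggtgctgaaggctg
METTL3 (chr14:21511316-21511345, minus strand): gggtcattttccggttagccttcggggtgt
YTHDF1 (chr20:63216107-63216136, minus strand): ctgctgtcgccgccgccgccgccattggag
NAT10 (chr11:34105624-34105653, plus strand): ctaccagttcctgagagggacgcgtgccgc
RPL11 has another listed start without the run, and the first 5 sequences above hold the run while the other 5 do not. These are annotated starts, and transcript ends in FaDu cells were not measured here.

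Ribosomal protein mRNAs kept most of their peaks in both conditions. Of their 159 shNC peaks, 143 overlapped a shNAT10 peak by at least 1 bp of exonic sequence on the same strand (89.9%, 95% Wilson interval 84.3 to 93.7%), and of their 155 shNAT10 peaks 142 overlapped a shNC peak (91.6%). Over all genes, 51.7% of the 6403 shNC peaks and 51.5% of the 6417 shNAT10 peaks were shared in this way, and over the genes with a differential peak 56.1% and 57.1%. The other 79 members lay nearer to that background, with 70 of 106 shNC peaks (66.0%, 56.6 to 74.4%) and 67 of 111 shNAT10 peaks (60.4%, 51.1 to 69.0%) shared. Intervals cover the sampling of peaks only, and peaks of 1 gene are not independent.

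The families differed in how many peaks they shared. The large subunit shared 91 of 102 shNC peaks and 89 of 97 shNAT10 peaks, and the small subunit 52 of 57 and 53 of 58. Initiation factors, which bring mRNA, initiator tRNA and the small subunit together, shared 29 of 37 and 29 of 35, and within them the 9 eIF3 subunit genes shared 12 of 15 and 11 of 13. Elongation factors, which bring aminoacyl-tRNA to the ribosome and move it along, shared 6 of 7 and 5 of 6. The translation families thus lay together at the upper end. HNRNP genes, whose proteins coat nascent RNA, shared 20 of 29 and 18 of 26, and DEAD-box helicases 6 of 9 and 6 of 13. The SF3 and PRPF spliceosome genes shared 4 of 6 shNC peaks but 4 of 13 shNAT10 peaks, and RNA modification genes 2 of 8 and 2 of 12. SR splicing factors, which bind exonic enhancers, shared 3 of 7 and 3 of 4. The 3 peaks of EWSR1 and the 2 peaks of DHX genes had no partner.

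**Figure D1:**
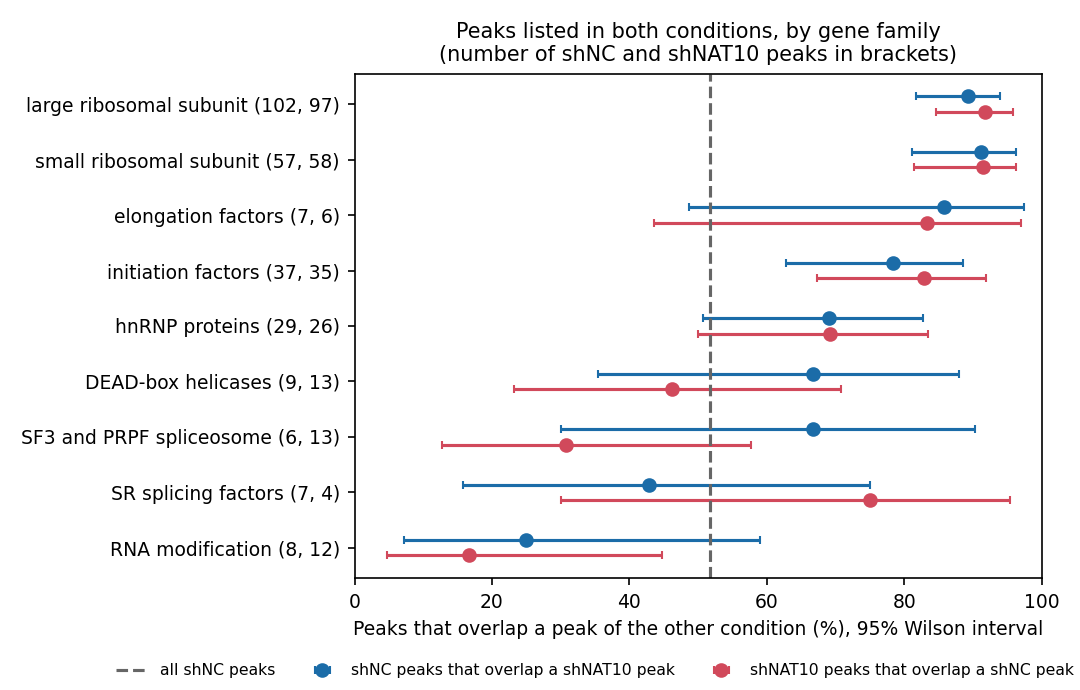
Share of peaks (%) that overlap a peak of the other condition, for shNC peaks (blue, upper point of each pair) and shNAT10 peaks (red, lower point), with 95% Wilson intervals, by family; the dashed line is the share over all shNC peaks, 51.7%. The points of the ribosomal subunits and translation factors lie to the right of the line in both lists, and those of the RNA modification genes to its left, with intervals that cross the line for elongation factors and for the shNC peaks of RNA modification genes.

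Peak strength moved with this share. The log10 FDR of a peak underflowed, that is, was too small to be written, in 54.1% of ribosomal protein shNC peaks. The share was 6.06% of all shNC peaks and 9.965% of those of the differential table genes. Peaks that underflowed were shared in every group, 86 of 86 for ribosomal proteins, 11 of 11 for other members and 291 of 291 for non-members. In this paragraph, non-member peaks are all remaining peaks of a list, also those of genes without a differential peak. Such genes have no symbol here, so ribosomal protein genes may be among them. Among non-member shNC peaks with a log10 FDR of -100 or lower, 98.6% were shared, so ribosomal protein peaks stood apart little there. Above -100, 30 of 46 ribosomal protein shNC peaks (65.2%, 50.8 to 77.3%), 47 of 83 peaks of other members (56.6%, 45.9 to 66.8%) and 44.2% of 5434 non-member peaks (42.9 to 45.5%) were shared. Counted from shNAT10, these shares were 71.8%, 52.7% and 44.8%. Weaker ribosomal protein peaks were thus still shared more often than weaker non-member peaks by their intervals, by a smaller margin than over all peaks. Within this range above -100 the groups were not matched for strength, so a difference in strength may remain. How much of the sharing is owed to transcript abundance was not tested, since the files hold no RNA level.

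Ribosomal protein genes also carried more peaks, 2.45 per gene in shNC against 1.29 over all genes with a shNC peak. More than 1 exonic block was spanned by 45.3% of their shNC peaks, against 24.7% over all genes. Over the genes of the differential table, these values were 1.44 peaks per gene and 28.5%. By start, 85 of 91 shNC peaks of ribosomal protein genes with a pyrimidine start were shared (93.4%, 86.4 to 96.9%) and 28 of 35 of those without it (80.0%, 64.1 to 90.0%). Counted from shNAT10, the shares were 91.4% (83.9 to 95.6%) and 90.0% (74.4 to 96.5%). The intervals overlap in both lists, and the difference was not tested. Among other members the shares with and without it were 70.0% and 66.7% from shNC and 75.0% and 60.5% from shNAT10. The differential peaks split the same way as the lists. Of the 94 differential peaks on ribosomal protein genes, 82 overlapped a peak of both lists, 7 a shNC peak only and 5 a shNAT10 peak only. Of the 101 on other members, 50, 25 and 26 did so. Over all differential peaks the shares were 40.4% with both lists, 32.2% with shNC only and 27.3% with shNAT10 only.

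The 16 shNC peaks of ribosomal protein genes without a shNAT10 partner were spread over 15 genes. The strongest of these was on the read-through locus RPS10-NUDT3, at a fold enrichment of 38.2. The shNC-only differential peak of this locus lay at chr6:34288381-34288739, in a 3′-UTR and over a peak of another gene. The RPS10 differential peak lay at chr6:34424724-34425517, so the former need not be ribosomal protein sequence. RPL37A had 2 of the 16, with fold enrichments of 6.91 and 10.4, and RPL7L1 had the only peak of its gene, with 16.6. RPL7L1, a paralogue of RPL7, was the single ribosomal protein symbol with peaks in 1 list only. By gene, 58.9% of all genes of the differential table had peaks in both lists, 21.5% in shNC only and 19.6% in shNAT10 only. Of the 144 members, 119, 10 and 15 did so, and of the 65 ribosomal protein symbols 64, 1 and 0. Of the 13 shNAT10 peaks without a partner, RPL14 (3.14 and 6.76), RPL22 (12.7 and 11.8) and RPS19 (11.0 and 10.1) had 2 each. RPL14, RPL22 and RPS19 each also had shared peaks beside them.

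Fold enrichment, the ratio of IP to input at a peak, was compared at 206 pairs of overlapping peaks of the same gene. Pairs came from the peak lists, whether or not a differential peak lay at the same place. The lists were made separately and the scaling between libraries is not given in the sources used here, so a ratio of 1 fold enrichment to the other is a description. The median log2 ratio of shNAT10 over shNC was -0.13 (95% interval from order statistics, -0.28 to 0.07), with an SD of 1.33 among pairs, against -0.08 over all 3188 pairs. A lower fold enrichment by at least 2-fold was seen at 34 pairs (16.5%) and a higher one at 38 (18.4%), with 24.7% and 21.8% over all genes and 29.4% and 25.6% over the genes of the differential table. The pairs showed no common direction across these mRNAs.

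Most ribosomal protein pairs lay within 2-fold of their shNC level, 103 of 140 (73.6%). The share was 53.5% over all genes and 45.0% over the genes of the differential table. Of the 140 pairs, 14 were at least 2-fold lower (10.0%) and 23 at least 2-fold higher (16.4%), with a median of -0.14 and an SD of 1.03. The 66 pairs of other members were wider, with an SD of 1.82, 20 lower (30.3%) and 15 higher (22.7%). Strength moved with this too. Among pairs whose FDR underflowed in both lists, 84.6% of 78 ribosomal protein pairs and 80.8% of 214 non-member pairs lay within 2-fold. Ribosomal protein pairs thus stood apart little there. These non-member pairs include genes without a differential peak.

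**Figure D2:**
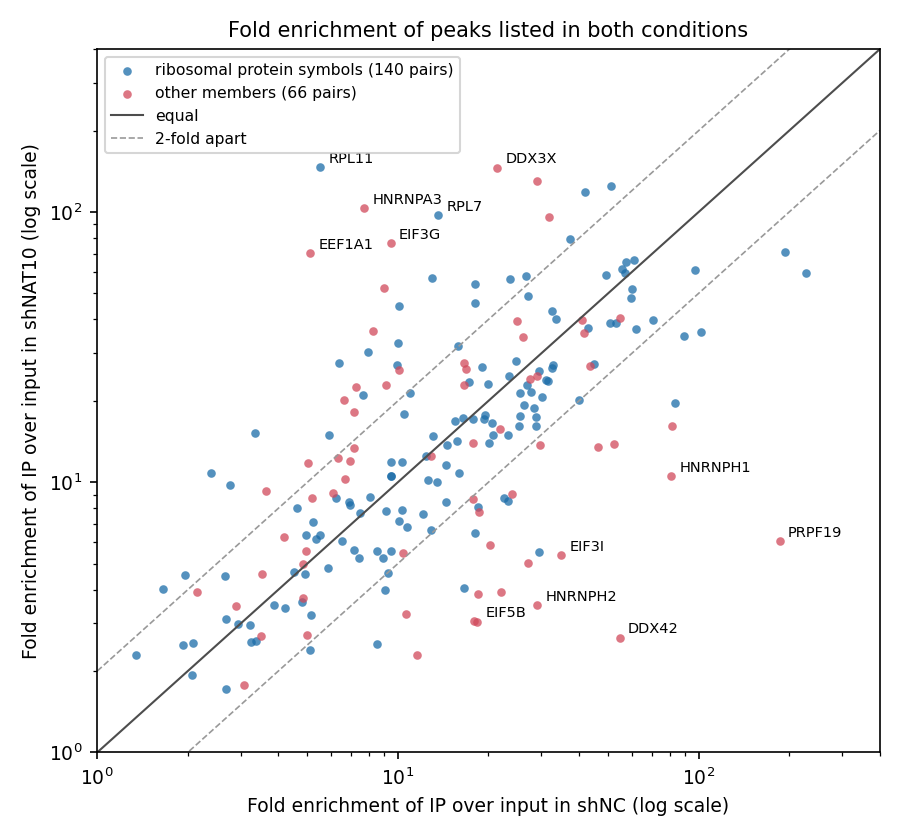
Fold enrichment of IP over input in shNC (x axis) and shNAT10 (y axis), both on log scales, at the 206 pairs of overlapping peaks, with the 6 lowest and 6 highest ratios named. Most of the 140 ribosomal protein pairs lie between the dashed lines that mark a 2-fold difference, and PRPF19 and RPL11 lie farthest from the line of equality.

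The highest fold enrichments of ribosomal protein peaks were those of RPS3A in the small subunit, 227 in shNC and 59.2 in shNAT10, and of RPL22L1, a paralogue of RPL22, 194 in shNC and 70.9 in shNAT10. Both pairs were lower in shNAT10, with log2 ratios of -1.94 and -1.45. The differential peak of RPL22L1 lay at its pair, and that of RPS3A lay elsewhere in the gene. In shNAT10 the highest were RPL11 (147) and RPLP2 (125), the latter part of the acidic stalk of the large subunit, which stood at 51.1 in shNC. RPS3A was also the highest of the small subunit in shNAT10.

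RPL11, a large subunit protein that also binds MDM2, had the highest ratio of all pairs, with 5.50 in shNC and 147 in shNAT10 (log2 ratio 4.74). Its log10 FDR was -128 in shNC and -297 in shNAT10. The other pair of RPL11, upstream in the gene, was nearly level, with 12.6 and 10.2. The only differential peak of RPL11 lay at this level pair and not at the pair of 5.50 and 147. RPL7 followed among ribosomal proteins, with 13.6 and 97.4 (2.84). At the other end stood RPL3, near the peptidyl transferase centre, with 29.4 and 5.50 (-2.42). The differential peaks of RPL3 lay elsewhere in the gene.

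Peaks of 1 gene could differ in opposite directions. Peaks were matched by gene and not by transcript. In RPS9, the fold enrichment was 83.3 in shNC and 19.7 in shNAT10 at 1 pair, 20.5 and 16.6 at another, and 2.39 and 10.8 at the last. No differential peak of RPS9 lay at the pair of 83.3 and 19.7. In RPS7, the log2 ratios of its 3 pairs were -1.47, -0.65 and 2.11. Both genes encode small subunit proteins, and both held pairs at least 2-fold lower and pairs at least 2-fold higher. RPL15 did so as well (log2 ratios of -2.03 and 1.02), as did EIF3K (-2.34 and 1.63). DDX39B, an mRNA export helicase, had log2 ratios of -2.25 and 1.32, but its 4 paired peaks lay over peaks of another gene, so they cannot be assigned to 1 gene. RPL13A and RPL24 had pairs on both sides of 0 as well, none of them 2-fold lower. In RPL13A the 4 log2 ratios ran from -0.67 to 1.58. RPL24 stood at 9.25 and 4.63, 60.9 and 66.4, and 26.7 and 57.8. RPS2 (-0.64 and -0.30) and RPL10 (0.30 and 0.96) had both pairs on the same side.

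**Figure D3:**
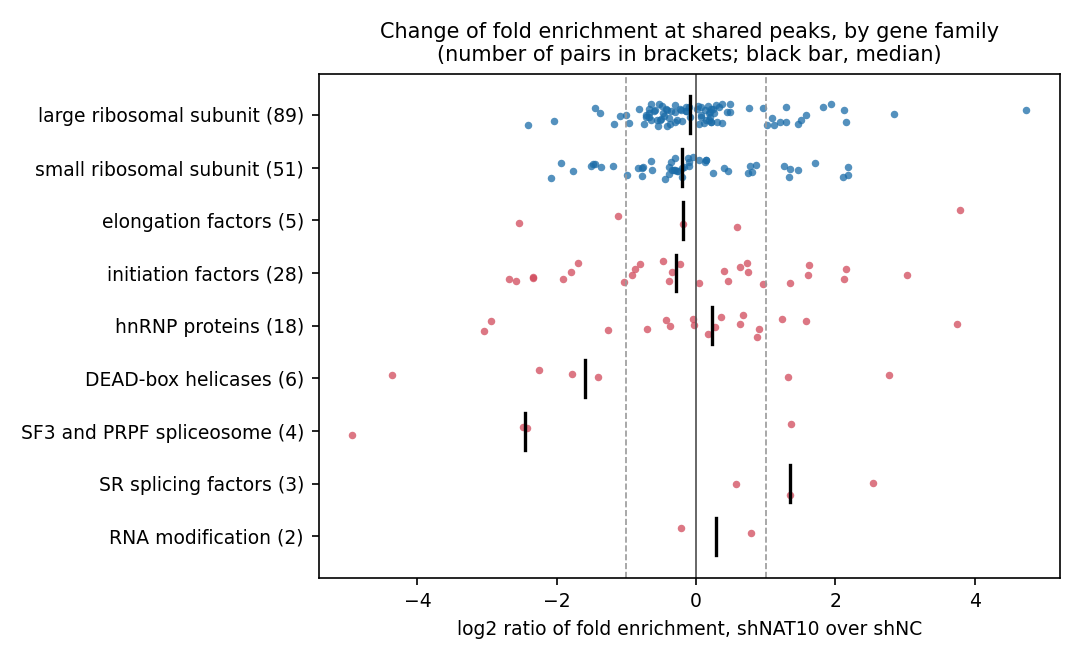
log2 ratio of fold enrichment, shNAT10 over shNC, at each pair of overlapping peaks, by family, with a black bar at the median and dashed lines at 2-fold; points are jittered upwards and downwards for display only. The 2 ribosomal subunits are centred near 0, while all 6 DEAD-box pairs and all 4 SF3 and PRPF pairs lie outside the dashed lines. Over the genes of the differential table, 45.0% of pairs were within 2-fold.

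All 22 initiation factor genes had peaks in both lists, and their 28 pairs split evenly, 14 within 2-fold, 8 lower and 6 higher in shNAT10. The lower (28.6%) and higher (21.4%) shares were near the 29.4% and 25.6% over the genes of the differential table. The highest fold enrichment was that of EIF1AX in shNC (134) and EIF1 in shNAT10 (130), both factors of start codon selection. EIF1 had 3 pairs, of 29.1 and 130, 17.7 and 14.0, and 10.4 and 5.49 in shNC and shNAT10. The eIF3 complex, which holds the small subunit during initiation, was mixed. EIF3I had 34.8 in shNC and 5.39 in shNAT10 (log2 ratio -2.69), and EIF3G had 9.45 and 76.9 (3.02). EIF3M stood at 29.0 and 24.7. Subunits of the same complex thus lay on both sides of 0, 3 pairs lower, 3 higher and 5 within 2-fold.

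EIF5B, the GTPase of subunit joining, had pairs of 18.3 and 3.05 (-2.58), 21.9 and 15.8, and 6.30 and 12.3. Of the other factors, EIF4G2, an eIF4G relative, stood at 81.7 and 16.1 (-2.34), and EIF4A3, a core protein of the exon junction complex, at 8.29 and 36.3 (2.13). EIF6, which keeps the subunits apart, had 52.1 and 13.8, and its shNC peak lay over a peak of another gene.

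The 4 elongation factor genes were EEF1A1, EEF1B2, EEF1G and EEFSEC, all with peaks in both lists. EEF1A1 had the highest fold enrichment in shNC, 43.7, and in shNAT10, 70.6. Its log2 ratio of 3.79 set the 70.6 of a single long shNAT10 peak against 5.10 at 1 of 2 shNC peaks that this peak covers, the other being the one at 43.7, so this ratio rests on where the peak ends were drawn. Peaks that overlapped more than 1 peak of the other list made up 20 of the 206 pairs, and without them 31 pairs were lower and 36 higher. EEF1B2, an exchange factor for eEF1A, was lower at both pairs, with 17.9 and 3.07, and 29.7 and 13.7.

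Of the 13 HNRNP genes, 12 had peaks in both lists, and 12 of their 18 pairs lay within 2-fold. Over the genes of the differential table, 45.0% of pairs did so. HNRNPH1 and HNRNPH2, close relatives that bind G-rich RNA, were the lowest, with 80.8 in shNC and 10.5 in shNAT10 (-2.94) and with 29.0 and 3.52 (-3.04). HNRNPH3 of the same group had 2 peaks in shNC, the higher at 6.91, and none in shNAT10. HNRNPA3 was the highest, with 7.70 and 103 (3.74), and its other pairs stood at 31.8 and 95.5 and at 2.89 and 3.49. HNRNPM followed HNRNPH1 in shNC and HNRNPA3 in shNAT10, with 54.8 and 40.6. HNRNPA2B1 carried 4 differential peaks, as many as RPL13A and more than any other member, and its single pair stood at 24.8 and 39.6.

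The DEAD-box pairs were all at least 2-fold apart, 4 lower and 2 higher, and came from 5 genes, the 2 DDX39B pairs with the uncertain gene among them. Over the genes of the differential table, 29.4% of pairs were at least 2-fold lower and 25.6% at least 2-fold higher. DDX42, a helicase of the early spliceosome, had 54.6 in shNC and 2.66 in shNAT10 (-4.36), the latter with a log10 FDR of -1.77. DDX5 had 46.3 and 13.5 (-1.78), and DDX56 23.9 and 9.04 (-1.40). DDX3X, which helps scan structured leaders, went the other way, with 21.4 and 146 (2.77). The DEAH-box genes were DHX30 and DHX33, each in 1 list only, with 85.6 in shNC and 121 in shNAT10.

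Among the splicing factors of the SF3 and PRPF families, 5 of 10 genes had peaks in both lists, 5 in shNAT10 only and 0 in shNC only, with 58.9%, 19.6% and 21.5% over all genes of the differential table. Those seen in shNAT10 only included PRPF4 (49.9), a protein of the U4/U6 snRNP, SF3B1 (19.9), which holds the branch site, SF3B4 (16.5) and SF3A2 (10.9). Of the 4 pairs in these families, 3 were at least 2-fold lower in shNAT10 and 1 at least 2-fold higher. Over the genes of the differential table, 29.4% of pairs were lower and 25.6% higher by that limit. PRPF19, the scaffold of a ubiquitin ligase complex of the spliceosome, had the lowest ratio of all pairs, with 186 and 6.07 (-4.94) at log10 FDRs of -89.7 and -11.3. SF3A3 had 22.0 and 3.92 (-2.49), and SF3B5 27.1 and 5.02 (-2.43). PRPF6 was higher, with 10.1 and 26.0 (1.36), and SF3B2 had peaks in both lists that did not overlap. Peaks seen in shNAT10 only and shared peaks with a lower fold enrichment thus occurred side by side in these families.

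The 4 SR genes were SRSF2 (18.6) and SRSF11 (15.9), seen in shNC only, and SRSF3 and SRSF4 in both lists. SRSF4 had 8.98 and 52.4 (2.54), and SRSF3 had pairs of 7.14 and 18.2 and of 6.10 and 9.10, both higher in shNAT10.

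RNA modification genes shared few peaks, 2 of 8 from shNC and 2 of 12 from shNAT10. Their peaks were weak, with median log10 FDRs of -5.89 in shNC and -7.455 in shNAT10. These medians were -17.7 and -17.4 over the genes of the differential table, and -8.87 and -8.1 over all genes. Of the 13 genes, 4 had peaks in shNC only, 6 in shNAT10 only and 3 in both lists. These counts can be read against the same 21.5%, 19.6% and 58.9% over all genes of the differential table. The 3 m6A genes among the members were in shNAT10 only, with 1 peak each. Other m6A genes, without a differential peak, have no symbol here, so their peaks could not be read. These were METTL3 (15.0), the catalytic subunit of the m6A writer, YTHDF1 (32.5), a cytoplasmic reader, and YTHDC1 (18.6), the nuclear reader. TRMT6 (27.9), a subunit of a tRNA methyltransferase, METTL22 (21.1) and METTL13 (7.35) were also in shNAT10 only. The last 2 are known to methylate proteins, not RNA.

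Those in shNC only were NSUN5P2 (23.5), a pseudogene, NSUN4 (18.6), which methylates mitochondrial rRNA, METTL2A (8.63), a tRNA methyltransferase, and METTL23 (6.69), a protein methyltransferase. METTL2B, nearly identical to METTL2A, was in both lists, with 41.4 and 35.5, and how reads were divided between them is not given in the sources used here. The paired METTL2B peaks, of 360 nt in shNC and 181 nt in shNAT10, overlapped by 91 bp only. TRMT2A had peaks in both lists, at 14.8 in shNC and 33.8 at the highest in shNAT10, with no overlap. A peak found in 1 list may have been just below the caller's threshold in the other, which was not tested.

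**Figure D4:**
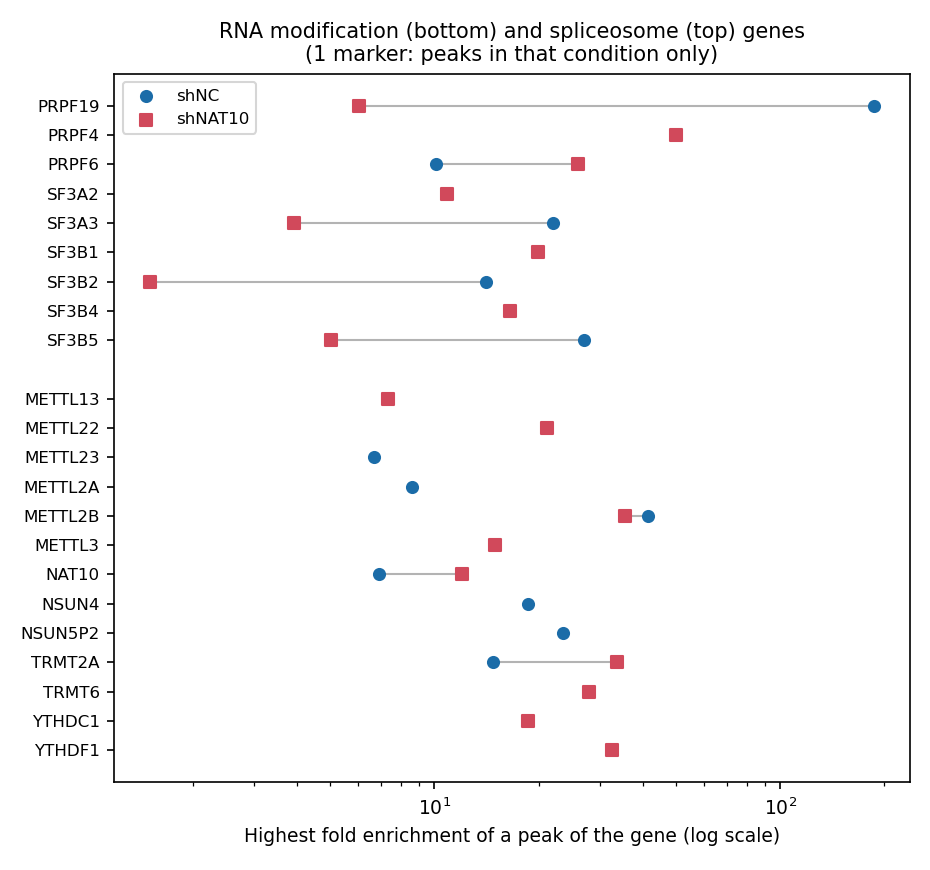
Highest fold enrichment of a peak (log scale) of each RNA modification gene (lower block) and of SF3 and PRPF genes (upper block) in shNC (circles) and shNAT10 (squares); a gene with 1 marker had peaks in that condition only. METTL3, YTHDF1 and YTHDC1 show squares only, as do PRPF4, SF3A2, SF3B1 and SF3B4, and 1 gene of the upper families is not drawn.

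NAT10, the targeted gene and itself a member, had 1 peak in each condition. They overlapped in its 3′-UTR, at chr11:34146720-34146870 in shNC with a fold enrichment of 6.91 and at chr11:34146612-34146850 in shNAT10 with 12.0 (log2 ratio 0.80). The NAT10 peak was thus not lower in the knockdown library by this ratio, which is relative to the input and not a level of NAT10 RNA.

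EWSR1, an RNA-binding protein of the FET family, had peaks at different places in the 2 conditions. In shNC they lay at chr22:29299297-29299447 (3.21) and chr22:29300316-29300525 (46.3), and in shNAT10 at chr22:29296248-29298818 over 3 exonic blocks (10.6). No EWSR1 peak was shared. TAF15 of the same family, which the symbol rule does not take, had a shared peak with a log2 ratio of 1.47.

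The position of the differential peaks set the ribosomal protein mRNAs apart. The deposited table gives each differential peak a region class, and 6 of 94 ribosomal protein peaks were in the 3′-UTR (6.38%, 2.96 to 13.2%), against 53 of 101 for other members (52.5%, 42.8 to 61.9%) and 56.1% over all 2807. These 6 included peaks on the read-through loci RPS10-NUDT3 and RPL17-C18orf32, each over a peak of another gene. The ribosomal protein peaks were instead in coding sequence (35) or classed only as exon (53). Without the exon class, 6 of 41 ribosomal protein peaks (14.6%, 6.88 to 28.4%), 53 of 73 of other members (72.6%) and 74.7% of 2029 non-member peaks were in the 3′-UTR. Spanning several blocks did not go with the exon class among ribosomal protein peaks, with 52.2% of 46 multi-block and 60.4% of 48 single-block peaks in that class. What the exon class stands for is not given in the sources used here, and 3′-UTR lengths were not compared.

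**Figure D5:**
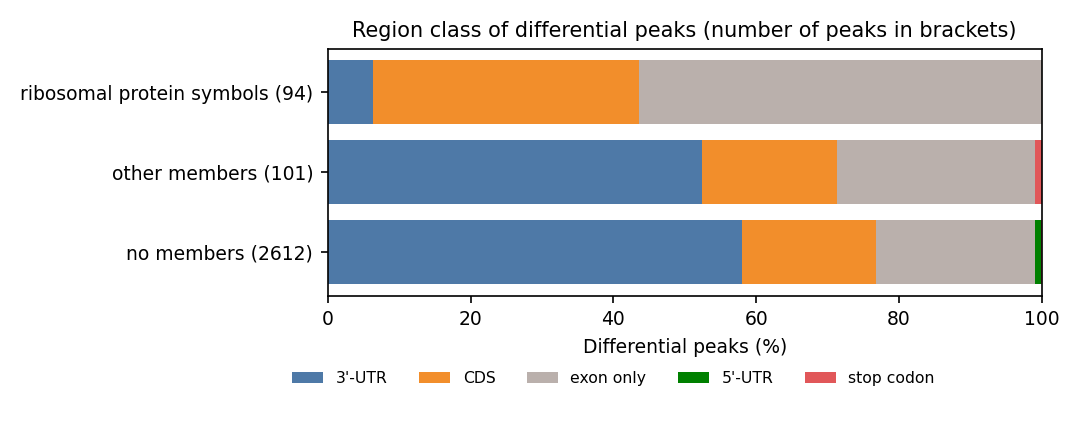
Region class of the differential peaks, in percent of peaks, for ribosomal protein symbols, other members and genes that are no members. The 3′-UTR makes up 6.38% of ribosomal protein peaks and 52.5% of those of other members.

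The deposited table also lists, for each differential peak, sites of the C-rich pattern CXX repeated 4 times, where X is any base. Such a site was listed for 98 of the 195 member peaks (50.3%, 43.3 to 57.2%), with 60.9% over all differential peaks. The share was 52 of 94 for ribosomal proteins (55.3%) and 46 of 101 for others (45.5%). Small subunit peaks held it more often (70.3%, 54.2 to 82.5%) than large subunit peaks (45.6%, 33.4 to 58.4%), with intervals that overlap. These shares were not adjusted for peak length. Within exonic blocks, the density was nearly equal, at 0.361 sites per 100 nt of small and 0.329 of large subunit peaks. HNRNP peaks held it in 28.6% and eIF3 peaks in 80.0%. Sites within exonic blocks numbered 0.319 per 100 nt of member peaks and 0.503 per 100 nt of non-member peaks.

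A further 132 symbols of the same pathways that the rule does not take were read beside the members, with synthetases entered under old and new symbols. Of these, 48 had a differential peak, 40 with peaks in both lists, 6 in shNC only and 2 in shNAT10 only, against the shares of 58.9%, 21.5% and 19.6% over the differential table. All 10 aminoacyl-tRNA synthetases, which charge tRNAs, had peaks in both lists, and RARS had the lowest ratio among them, with 89.8 and 2.75 (-5.03). Of the U2AF, Sm and snRNP proteins, 9 of 10 had peaks in both lists, with SNRPB at 6.58 and 58.3 (3.15) and SNRNP40 at 48.3 and 3.56 (-3.76). Of ribosome assembly factors 9 of 10 did so, of other modifiers 6 of 7, and of the FET family and related RNA-binding proteins 3 of 4. Genes of termination, poly(A) binding and ribosome rescue stood at 3 of 7 in both lists, with 3 in shNC only and 1 in shNAT10 only. None of the 10 listed m6A genes outside the rule had a differential peak, so whether they had peaks in either list could not be read.

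Some member values are uncertain by position. Of the 195 differential peaks, 13 lay over one that belongs to another gene on the same strand, among them RPL17 with its read-through locus RPL17-C18orf32 and RPS10 with RPS10-NUDT3. RPS19BP1 is a binding partner of RPS19 and not a ribosomal protein. Ribosomal protein mRNAs have many processed pseudogenes, and how reads that fit several copies were placed is not given in the sources used here.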

How the data were processed

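acRIP-seq was analysed for 4 libraries of FaDu cells, an IP and an input each for shNC and shNAT10. Tables were assigned to conditions by a prefix they share with the labels. The submitters' processing notes name cutadapt 2.5, HISAT2 2.1.0, HOMER 4.10.4 and featureCounts 1.6.3 with no role for each, and GRCh38. The peak caller, its threshold and the scaling are not given in the sources used here. In the peak lists deposited by the authors, fold enrichment is a linear ratio of IP over input, and the FDR is a log10 value, treated as a score. The differential table that the authors deposited holds other annotation (region class, symbol, site positions), and also a log2 fold change, p-value and FDR between conditions, which were not used. The depth is unknown, so no read-level precision can be given.

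Positions were compared with RefSeq GRCh38.p14, and 194 of 195 member peaks fell within the like-named gene. Symbols came from the differential table, which pairs 2483 of 6723 genes. Overlap needed 1 bp of exonic blocks on the same strand. Pairs were reciprocal best overlaps within a gene, and 2-fold was the limit of size. Shares have 95% Wilson intervals. No p-value was computed, because each condition is 1 IP and 1 input. Columns of per-sample values left unmapped numbered 0. The overlap code was tested on copies of the shNC peaks, kept in place or moved away, with planted fold ratios. Peaks with differing ends were not planted in that test. Software was matplotlib 3.10.9, scipy 1.17.1, pandas 2.3.3 and numpy 2.4.6 under Python 3.11.15.

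Members and lists were chosen with earlier results of these data known. Genes named were NAT10 and EWSR1, the highest fold enrichment of each family in each list, the 6 lowest and 6 highest ratios, members with 3 or more differential peaks, all members of groups of 5 or fewer, and the 3 highest genes seen in 1 list only. Further members of a family, such as other initiation factors, RPL3, RPL7, RPL15 and RPS7, and the genes outside the rule, were named after their values were seen. The results for a few named genes are not reported here.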

Additional observations from a re-analysis of the deposited data

How the results depend on the processing

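Of 40 alternative values over 11 results, 32 stayed within the 95% interval or within 1.5 times the count, and 8 did not. Requiring 50% of each peak to overlap gave shared shares of 71.7% from shNC and 70.7% from shNAT10 for all members, with 41.0% and 40.9% over all peaks, and 51.9% of other members' shNC peaks. With a log10 FDR above -100, 65.2% of ribosomal protein shNC peaks were shared. A limit of 1.5-fold gave 58 lower pairs, and a fold enrichment of at least 4 gave 16 genes in the shNC list only. Without the exon class, 51.8% of member differential peaks were in the 3′-UTR. Over all 195 of them, exon class included, 25.6% held at least 2 C-rich sites. The alternatives for ribosomal and other members apart, and the pairs whose peaks each overlap 1 peak, were chosen after seeing the data. No paired analysis was possible because there were no replicates or replicate numbers. With no replicates and unknown depth, the spread between cultures and the limits of detection cannot be given.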
